A study of Mus musculus with 12 samples.

Results

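Fibroblast growth factors (FGFs) and their receptors were followed across 12 RNA-seq libraries of mouse prostate organoids. The genes were taken by name: the 4 receptors Fgfr1, Fgfr2, Fgfr3 and Fgfr4, and the 4 ligands Fgf1, Fgf2, Fgf7 and Fgf10. These are 8 of the 43243 gene names in each file, and all 8 were found. Of the 8, 3 reached 1 RPKM (reads per kilobase of transcript, scaled to library depth) in at least 10 libraries, and Fgfr3, Fgfr4 and Fgf10 stayed below 1 RPKM in all 12.

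The libraries formed a SPOPmut group of 6 and a SPOPwt group of 6, each numbered S0 to S5 and treated as 6 pairs. SPOP picks the proteins that a cullin ubiquitin ligase marks for breakdown, and the study asked how expression differs with its mutant form. Per the labels' protocols, digested mouse prostate was grown in Matrigel with EGF at 5 to 50 ng/ml. A tamoxifen-dependent Cre (CreERT2) was then switched on overnight with 4-hydroxytamoxifen at 1 µM. The Cre came either from a virus with puromycin selection (Line_A) or from a TMPRSS2-CreERT2 mouse transgene (Line_B), whose promoter is that of a gene of luminal epithelium. For lines without inducible Cre, the protocols name a Probasin-driven Cre and a Rosa26 allele with the F133V mutation (R26F133V). The protocols give 5 pairs from model A and 1 from model B, and the labels do not say which pair is which. They give neither the age of the mice nor how many mice or clones a line came from, and do not say whether controls received the drug. Mutant cells were sorted for GFP and control cells were sham sorted, so an effect of the mutant and one of the sort cannot be told apart. Nothing says that the pairs are separate animals, so p-values measure the spread between these pairs, which may be technical.

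FGFs are secreted proteins that bind receptor tyrosine kinases together with heparan sulfate and signal through the adaptor FRS2 to the RAS and ERK cascade. In the prostate, FGF7 and FGF10 are made by stromal cells and act on the epithelium, whose form of FGFR2 (IIIb) they bind. Mesenchymal cells make the IIIc form of FGFR2 from the same gene, along with FGFR1, and IIIc forms bind FGF2 and not FGF7. FGF1 binds all the receptors.

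The forms of Fgfr2 differ by 1 exon, and the exon of the IIIb form, which FGF7 and FGF10 bind, is shown because a level per gene, as the files give it, does not tell the forms apart. It is a coding exon on the minus strand of chromosome 7 (GRCm38), read from the GENCODE M21 transcripts. It lies at chr7:130199758-130199905, is 148 bases long and is in 10 of the gene's 27 transcripts. No base is set in capitals, since the whole exon marks the form.
Fgfr2 IIIb exon: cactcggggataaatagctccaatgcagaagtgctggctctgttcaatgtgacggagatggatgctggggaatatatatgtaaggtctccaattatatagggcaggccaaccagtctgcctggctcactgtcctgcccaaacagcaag

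On GRCm38 the receptor genes lie on chromosome 8 at 25513654 to 25575718 (Fgfr1), chromosome 5 at 33721674 to 33737068 (Fgfr3) and chromosome 13 at 55152640 to 55168759 (Fgfr4). Fgfr2 lies on chromosome 7, and its GENCODE M21 model, 130162451 to 133123350, runs into Ctbp2 on the same strand, with 314 shared exon bases. RefSeq ends Fgfr2 at 130266808. The ligand genes lie on chromosome 18 at 38838673 to 38929472 (Fgf1), chromosome 3 at 37348346 to 37410108 (Fgf2), chromosome 2 at 126034658 to 126091185 (Fgf7) and chromosome 13 at 118669791 to 118792115 (Fgf10). The kit does not mark strand, so reads from overlapping exons on the other strand cannot be told apart. Fgf2 shares 640 exon bases with Nudt6, Fgfr3 998 with G630022F23Rik, Fgfr1 164 with Gm16159 and Fgf10 123 with Gm16263.

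Library depth was estimated at 28280000 to 41000000 reads. Spop, the gene whose mutant form was studied, averaged 51.4 ± 3.66 RPKM over the SPOPmut libraries and 46.0 ± 4.18 RPKM over the SPOPwt libraries (SD, n = 6 each). It was higher in SPOPmut in 6 of 6 pairs (exact two-sided sign-flip permutation p = 0.031, the smallest 6 pairs can give). That count was met by 3.62% of the 13600 genes at 1 RPKM or more in at least 6 libraries. The level of Spop does not separate mutant from endogenous transcript. The epithelial markers that the label of prostate organoid calls for were high in S5 alone. The summed level of 12 basal epithelial markers was 2396 to 3382 RPKM in the S5 libraries and 20.5 to 28.05 RPKM across the 10 S0 to S4 libraries. The 10 pan-epithelial markers summed to 444 to 501 RPKM in S5 and 9.33 to 19.0 RPKM in S0 to S4. The 18 fibroblast and smooth muscle markers summed to 23.7 to 27.7 RPKM in S5 and 3462 to 5654 RPKM in S0 to S4. S100a4, the most abundant of them, held 1290 to 2266 RPKM of that sum in S0 to S4. Of the 18, 15 reached 1 RPKM in at least 1 library. Thy1, Myh11 and Des did not, at no more than 0.0204, 0.0713 and 0.267 RPKM in any library, so the sum does not stand for every marker. The prostate secretory gene Pbsn was listed at 0 in all 12 libraries. S5 is 1 pair, set apart by its values and by no label, so all comparisons of S5 with S0 to S4 are descriptions with no test.

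Fgf7, the stromal ligand of the IIIb receptor, was the most abundant of the 8 genes in S0 to S4 and near 0 in S5. It stood at 0.332 RPKM in the S5 mutant and 0.23 RPKM in the S5 control. Across the 10 S0 to S4 libraries it ran from 25.2 to 64.9 RPKM, with a median of 42.9 RPKM. The S5 mean was thus 162-fold lower, a difference of -5.13 in log2(RPKM + 1), and the ranges did not overlap. Across the 15508 genes at 1 RPKM or more in at least 2 libraries, both S5 libraries lay below all 10 others for 27.0% and above all 10 for 24.9%, so ranges that do not overlap were common. S5 was lower by 4 or more in log2(RPKM + 1) for 0.677% of those genes and higher by that much for 0.845%. In bulk samples, fewer cells of a type and less RNA per cell cannot be told apart.

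Fgf10, the other stromal ligand of the IIIb receptor, was scarce in every library. It was listed at 0 in both S5 libraries and ran from 0.0913 to 0.465 RPKM in S0 to S4, where its median was 0.158 RPKM. These levels rested on 15 to 60.5 approximate reads per library in S0 to S4.

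Fgf1 and Fgf2, which lack a classical secretion signal, did not follow that split. Fgf1 stood at 2.44 RPKM in the S5 mutant and 3.70 RPKM in the S5 control. In S0 to S4 it ran from 0.142 to 3.40 RPKM with a median of 0.808 RPKM, so the ranges overlapped. Fgf2 stood at 0.291 and 0.577 RPKM in the S5 mutant and control, against 0.552 to 1.31 RPKM in S0 to S4 with a median of 0.731 RPKM. Its ranges overlapped by 1 library, the S5 control.

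Fgfr1, the main receptor of mesenchymal cells, showed the same split as Fgf7. It stood at 0.1535 RPKM in the S5 mutant and 0.0994 RPKM in the S5 control. In S0 to S4 it ran from 14.9 to 40.4 RPKM with a median of 22.4 RPKM. The S5 mean was 196-fold lower, a difference of -4.44 in log2(RPKM + 1), and again without overlap. Of the 8 genes, 5 were in the background of 15508, and Fgfr1 and Fgf7 were the 2 of those 5 with S5 below all other libraries. Both were also among the 0.677% that were lower in S5 by 4 or more. Both entered the background through S0 to S4 alone, with 10 libraries there and 0 in S5 at 1 RPKM or more. The members were also chosen with earlier results of these data known, so these shares give the split no support.

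Fgfr2, whose IIIb form is the epithelial receptor of FGF7 and FGF10, was at similar levels on both sides of the split. It stood at 5.29 and 4.51 RPKM in the S5 mutant and control, and at 2.14 to 6.51 RPKM in S0 to S4 with a median of 3.49 RPKM. The S5 mean exceeded that of S0 to S4 by 0.27 in log2(RPKM + 1), less than the SD of 0.41 among the 10 libraries of S0 to S4. The S5 values fell inside the S0 to S4 range.

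Fgfr3 was higher in S5, at a low level. It stood at 0.463 RPKM in the S5 mutant and 0.531 RPKM in the S5 control, and at 0.0416 to 0.254 RPKM in S0 to S4 with a median of 0.085 RPKM. The S5 mean was 4.88-fold higher, with no overlap, and rested on about 112 and 156 approximate reads in the S5 mutant and control. Fgfr4 stood at 0.0396 and 0.0417 RPKM in the S5 mutant and control, 4.7 and 6.1 approximate reads, and at 0 to 0.0307 RPKM in S0 to S4, at most 3.8 approximate reads. The S5 mean was 5.38-fold higher with no overlap, at so few reads that nothing is read from it.

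**Figure D1:**
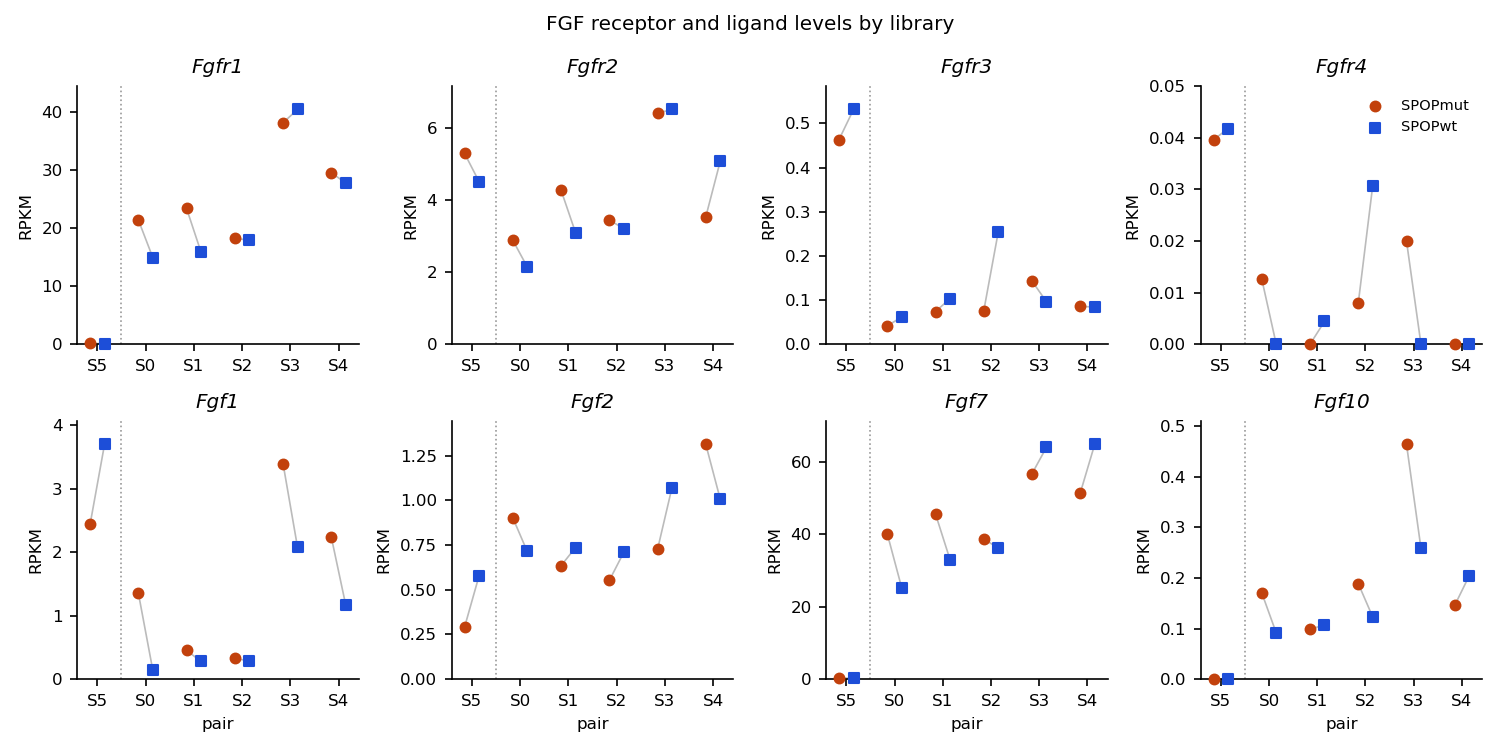
Level (RPKM, linear axis from 0 with its own scale per gene) of each receptor (top row) and ligand (bottom row) in every library, by pair; circles are SPOPmut, squares SPOPwt, a grey line joins a pair, and the dotted line parts S5 from S0 to S4. Fgfr1 and Fgf7 stay below 0.34 RPKM in S5 and above 14 RPKM in S0 to S4, while Fgfr2 lies between 2.14 and 6.51 RPKM on both sides.

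The make-up of the receptor and ligand sets differed across the split, as did their sums. RPKM is per length, so levels of different genes may be added. The 4 receptors summed to 5.18 to 5.95 RPKM in S5 and to 17.1 to 47.0 RPKM in S0 to S4. Fgfr2 made up 87.0 to 89.0% of that sum in S5 and 10.65 to 16.25% in S0 to S4. Fgfr1 made up 1.92 to 2.58% in S5 and 83.2 to 89.1% in S0 to S4. Fgfr3 held 7.79 to 10.3% of the receptor sum in S5 and at most 1.19% in S0 to S4. The 4 ligands summed to 3.06 to 4.51 RPKM in S5 and to 26.1 to 67.5 RPKM in S0 to S4. Fgf1 made up 79.7 to 82.1% of the ligand sum in S5 and 0.542 to 5.54% in S0 to S4, while Fgf7 made up 5.10 to 10.8% in S5 and 92.5 to 97.5% in S0 to S4.

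**Figure D2:**
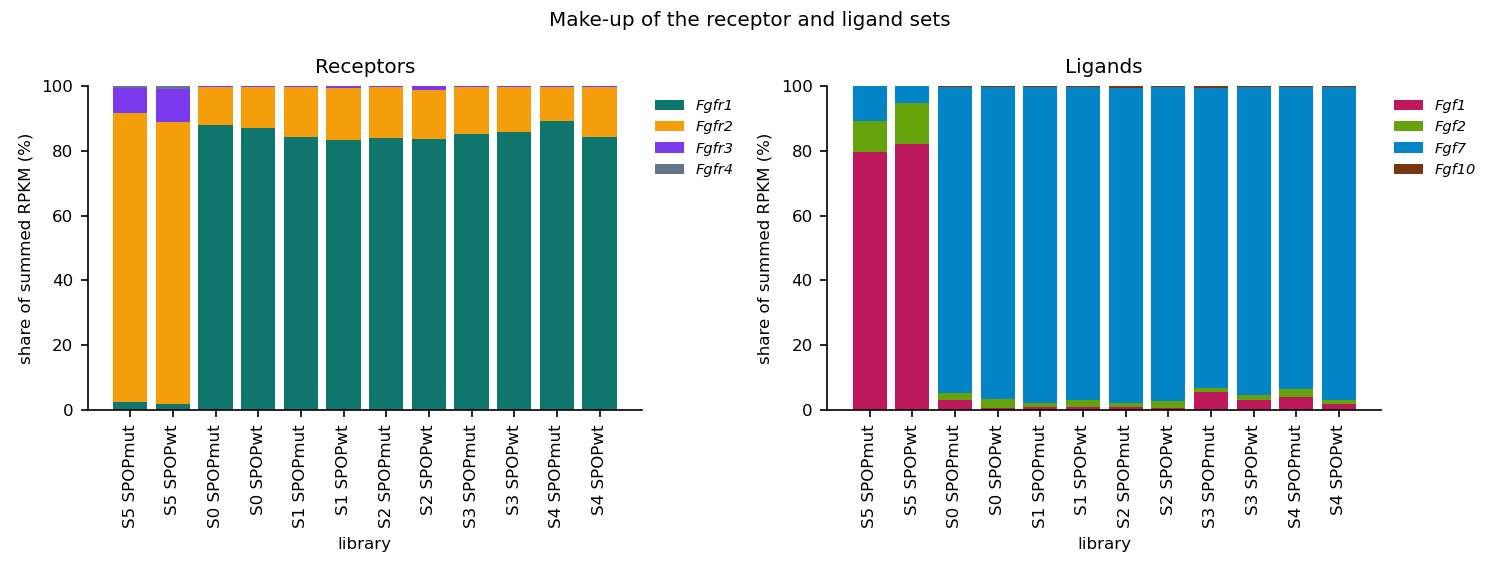
Share of the summed RPKM (%) taken by each of the 4 receptors (left) and 4 ligands (right) in each library; stacked bars add up to 100%. In both S5 libraries Fgfr2 and Fgf1 fill most of the bar, and in all 10 libraries of S0 to S4 Fgfr1 and Fgf7 do.

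The order of levels within a library followed the same split. In both S5 libraries the order was Fgfr2, then Fgf1, then Fgfr3, Fgf2 and Fgf7, whose places were not the same in both libraries, then Fgfr1, Fgfr4 and Fgf10. In S0 to S4, Fgf7 exceeded Fgfr1 in 10 of 10 libraries although their ranges overlapped, and Fgfr1 exceeded Fgfr2 in 10 of 10. Fgfr2 exceeded Fgf1 in 10 of 10. Fgf1 and Fgf2, the next neighbours, were in either order, 5 libraries each way. Fgf2 exceeded Fgf10 in 10 of 10 libraries, Fgf10 exceeded Fgfr3 in 9 of 10, and Fgfr3 exceeded Fgfr4 in 10 of 10.

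Within S0 to S4 the genes also varied by pair. Fgfr1 stood at 38.1 and 40.4 RPKM in the S3 mutant and control and at 29.5 and 27.75 RPKM in the S4 mutant and control. In S0 to S2 it ran from 14.9 to 23.4 RPKM, below all libraries of S3 and S4. Fgf7 likewise stood at 56.8 and 64.1 RPKM in the S3 mutant and control and 51.5 and 64.9 RPKM in the S4 mutant and control, against 25.2 to 45.6 RPKM in S0 to S2. Fgfr2 was highest in S3, at 6.40 RPKM in the mutant and 6.51 RPKM in the control. Fgf1 was highest in the S3 mutant at 3.40 RPKM, and the S0 mutant at 1.36 RPKM lay above the S4 control at 1.17 RPKM. Proliferation markers, 8 genes, were lowest in S3 within S0 to S4: they summed to 61.9 and 41.4 RPKM in the S3 mutant and control. They summed to 227 and 289 RPKM in the S4 mutant and control, inside the 210 to 418 RPKM of S0 to S2. Fibroblast and smooth muscle markers summed to 4357 to 5654 RPKM in S3 and S4 and 3462 to 4291 RPKM in S0 to S2. The part of either in these levels was not tested.

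Over the 10 libraries of S0 to S4, Fgfr1 and Fgf7 had a Pearson r of 0.916 in log2(RPKM + 1), and of 0.994 over all 12, where S5 sets the value. Fgfr1 and Fgfr2 had an r of 0.899 over the 10 and of -0.052 over all 12. The genes most like each member over those 10 libraries were picked as the 3 of highest r among 15508. For Fgfr1 they were Twsg1 (r = 0.989), Litaf (0.9875) and Serpina3h (0.987). For Fgfr2 they were Tmem192 (0.981), Usp12 (0.973) and Il1rn (0.971), and for Fgf1 they were P2ry6 (0.992), Gm25897 (0.9885) and Ephb6 (0.987). For Fgf7 they were Cnot6l (0.982), Psmd10 (0.98) and Lgi2 (0.979). Over all 12 libraries the values were lower: Litaf had an r of 0.33 with Fgfr1, Usp12 of 0.484 with Fgfr2, Gm25897 of 0.409 with Fgf1 and Cnot6l of -0.812 with Fgf7. Lgi2 had an r of 0.93 with Fgf7, Tmem192 of 0.954 with Fgfr2 and Ephb6 of 0.94 with Fgf1. The 10 points are 5 pairs whose libraries resemble each other, and the highest of so many genes is high by choice, so these values are descriptions.

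SPOPmut and SPOPwt were compared within pairs, and no member of the FGF set passed the test. Of the 8 genes, 4 were at 1 RPKM or more in at least 6 libraries and were tested: Fgfr1, Fgfr2, Fgf1 and Fgf7. By limma with Benjamini-Hochberg adjustment over 13600 genes, 0 of the 4 were called higher and 0 lower, as were 0% and 0% of all genes. At an unadjusted p under 0.05 the count was also 0 of 4 in each direction, against 3.82% of all genes higher and 1.77% lower. With a pseudocount of 0.1 in place of 1, Fgfr1 had an unadjusted p of 0.0456 (limma adjusted p = 0.887). The mean difference was above 0 for 4 of 4, against 50.2% of all genes. Each of the 4 mean differences was smaller than its SD over the 6 pairs, which ran from 0.26 to 0.51 in log2(RPKM + 1).

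Fgf1 showed the widest spread between pairs. In the order mutant and control, it stood at 1.36 and 0.142 RPKM in S0, 0.4515 and 0.279 RPKM in S1, and 0.326 and 0.2865 RPKM in S2. It stood at 3.40 and 2.08 RPKM in S3, 2.24 and 1.17 RPKM in S4, and 2.44 and 3.70 RPKM in S5. The mutant was the higher one in S0 to S4 and the lower one in S5, and the ranges of the groups overlapped. Fgf1 averaged 1.70 ± 1.21 RPKM over the SPOPmut libraries and 1.28 ± 1.40 RPKM over the SPOPwt libraries (SD, n = 6 each). The difference was 0.32 in log2(RPKM + 1) (SE 0.17, 95% interval -0.079 to 0.72, limma adjusted p = 0.887), and the exact sign-flip permutation p was 0.1562. Without S5 the difference was 0.47 (limma unadjusted p = 0.0169, adjusted p = 0.882), and without S0 it was 0.17. With a pseudocount of 0.1 it was 0.71 (limma adjusted p = 0.887).

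Fgfr1 had the higher level in SPOPmut in 5 of 6 pairs. In the order mutant and control, it stood at 21.4 and 14.9 RPKM in S0, 23.4 and 15.85 RPKM in S1, 18.25 and 17.9 RPKM in S2, 38.1 and 40.4 RPKM in S3, and 29.5 and 27.75 RPKM in S4, beside the S5 values above. The differences in S0 and S1 were 0.49 and 0.53 in log2(RPKM + 1), and in the other 4 pairs they lay between -0.082 and 0.086. The mean was 0.19 (SE 0.098, 95% interval -0.037 to 0.41, limma adjusted p = 0.887; exact sign-flip permutation p = 0.125). A count of at least 5 of 6 pairs higher, which Fgfr1 and Fgf1 had, was met by 15.6% of all genes. None of the 4 tested genes was lower in at least 5 of 6 pairs, a count met by 9.67% of all genes.

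Fgf7 and Fgfr2 were mixed across pairs. Fgf7 stood at 40.2 and 25.2 RPKM in the S0 mutant and control, 45.6 and 33.05 RPKM in the S1 pair and 38.8 and 36.2 RPKM in the S2 pair, each mutant first, and was lower in the mutant in S3 and S4. Its mean difference was 0.14 in log2(RPKM + 1) (SE 0.13, limma adjusted p = 0.887; exact sign-flip permutation p = 0.4062), higher in 4 of 6 pairs. Fgfr2 stood at 2.88 and 2.14 RPKM in the S0 mutant and control, 4.27 and 3.095 RPKM in the S1 pair, 3.44 and 3.21 RPKM in the S2 pair and 3.53 and 5.07 RPKM in the S4 pair, each mutant first. Its mean difference was 0.083 (SE 0.11, limma adjusted p = 0.904; exact sign-flip permutation p = 0.5), higher in 4 of 6 pairs. The 4 genes below the filter had mean differences between -0.071 (Fgf2) and 0.053 (Fgf10), with exact sign-flip permutation p-values of 0.25 for Fgfr3, 1 for Fgfr4, 0.4375 for Fgf2 and 0.3125 for Fgf10.

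**Figure D3:**
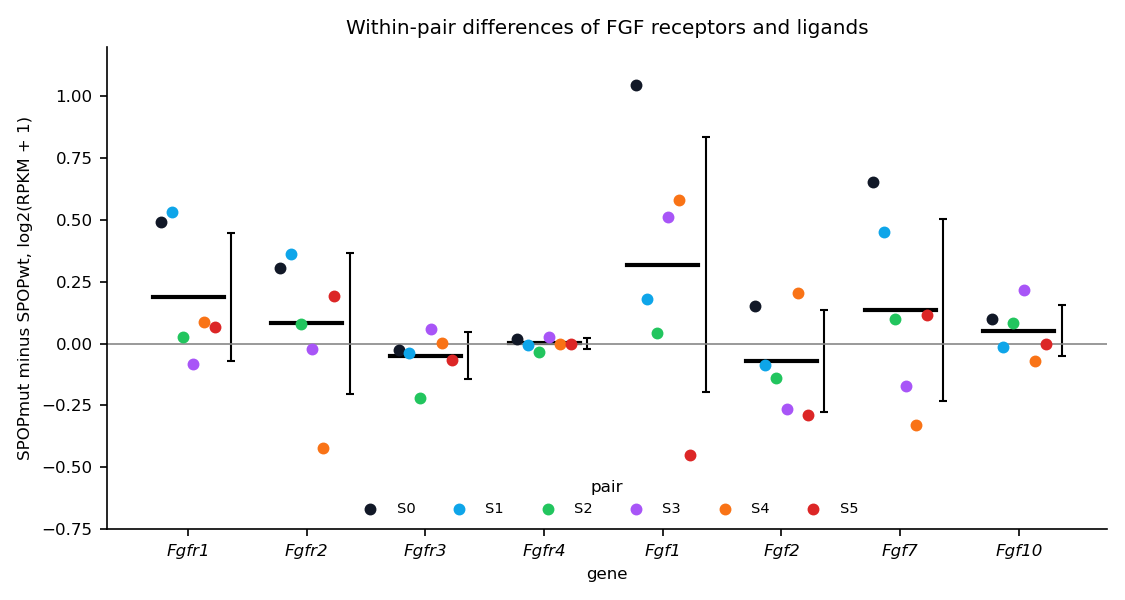
Difference of SPOPmut minus SPOPwt in log2(RPKM + 1) for each of the 8 genes; each point is 1 pair, coloured by pair, the thick bar is the mean over 6 pairs and the whisker beside it 1 SD to each side. Points lie on both sides of 0 for every gene, and for Fgf1 the 5 pairs S0 to S4 lie above 0 and S5 lies at -0.45.

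The rest of the FGF pathway was read from lists of genes by role. Among the 14 other FGF ligands, Fgf21, a metabolic hormone that acts with the co-receptor beta-Klotho, was the only one to reach 1 RPKM in at least 2 libraries. It stood at 6.76 and 10.4 RPKM in the S5 mutant and control and at 0.0291 to 1.14 RPKM in S0 to S4. Fgf3, Fgf4, Fgf6 and Fgf16 were listed at 0 in all 12 libraries. Klb, which encodes beta-Klotho, was at most 0.0525 RPKM, and Kl was listed at 0 throughout. None of the 14 was tested between genotypes.

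Of the 8 co-receptors, decoys and binding proteins, 5 were in the background of 15508, and S5 was above all other libraries for 3 and below for 1, against 24.9% and 27.0% of all genes. Fgfbp1, a carrier that releases FGFs from the matrix, stood at 300.2 and 217 RPKM in the S5 mutant and control, against 0.155 to 3.81 RPKM in S0 to S4. Flrt3 and Fgfbp3 were the other 2 above, and Flrt2 the 1 below. Flrt3 reached the background only with its S5 libraries, so its place among those above gives the split no support. Fgfrl1, a receptor without a kinase domain, stood at 4.92 and 5.50 RPKM in the S5 pair, mutant first, against 1.97 to 6.04 RPKM in S0 to S4. Between genotypes 0 of the 4 tested were called by limma, and 0 had an unadjusted p under 0.05. The smallest p-values were those of Fgfrl1, with a difference of 0.19 and a limma adjusted p of 0.887, and Flrt2, with 0.18 and 0.887.

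Of the 4 regulators of Fgfr2 exon choice, S5 lay above all others for 2 and below for 1, against 24.9% and 27.0% of all genes. The 2 above, Esrp1 and Esrp2, entered the background of 15508 through S5 alone. They were bound to count as above, so these shares give the split no support. The ranges of Fgfr2 itself overlapped. ESRP proteins favour the IIIb exon in epithelial cells, and RBFOX2 and PTBP1 act on the same exon pair. Esrp1 stood at 17.0 and 24.45 RPKM in the S5 mutant and control and at 0.0868 RPKM or less in S0 to S4. Esrp2 stood at 48.1 and 23.6 RPKM in the S5 pair, mutant first, and at 0.385 to 0.916 RPKM in S0 to S4. Both are also on the pan-epithelial marker list, whose 10 genes were all higher in S5, where 24.9% of all genes had S5 above all others. Esrp1, Esrp2 and others of the 10 were in the background through S5 alone. These markers also serve here to set S5 apart, so that count gives the split no support. Rbfox2 went the other way, with 11.6 and 14.35 RPKM in the S5 mutant and control against 25.7 to 37.9 RPKM in S0 to S4. Ptbp1, the most abundant of the 4, overlapped, with 68.0 and 65.8 RPKM in the S5 mutant and control and 49.85 to 91.6 RPKM in S0 to S4. Which exon the Fgfr2 reads held was not analysed here, since the files hold 1 value per gene. Neither Rbfox2 nor Ptbp1, the 2 tested, was called between genotypes by limma or had an unadjusted p under 0.05.

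Genes of the intracellular relay from the receptors were measured in both S5 and S0 to S4. All 16 adaptor and relay genes reached 1 RPKM in at least 2 libraries, and they summed to 267 to 269 RPKM in S5 and 252 to 294 RPKM in S0 to S4. S5 lay above all others for 6 of the 16 and below for 3, against 24.9% and 27.0% of all genes. Mapk3, which encodes ERK1, was the most abundant, with 25.98 and 29.6 RPKM in the S5 mutant and control and 43.1 to 70.5 RPKM in S0 to S4. Of 15 tested between genotypes 0 were called by limma and 0 had an unadjusted p under 0.05. Frs2, the docking protein of FGF receptors, had a mean difference of 0.097 in log2(RPKM + 1) (limma adjusted p = 0.887), with the same sign in 6 of 6 pairs, a pattern that 3.62% of all genes had. Gab1, an adaptor, had a difference of 0.13 (limma adjusted p = 0.887).

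Response and feedback genes of FGF and ERK signalling lay apart across the split about as often as all genes did. S5 lay above all others for 4 of 16 and below for 4, against 24.9% and 27.0% of all genes, and the list's median difference was -0.072 in log2(RPKM + 1), against -0.039 over all genes. Above were Dusp4, Dusp6, Ier3 and Phlda1, and below were Spry1, Spry2, Spry4 and Etv1. Dusp6, an ERK phosphatase, stood at 61.3 and 60.2 RPKM in the S5 mutant and control and 10.97 to 42.6 RPKM in S0 to S4. Spry4, a feedback inhibitor of receptor tyrosine kinases, stood at 0.276 and 0.44 RPKM in the S5 pair, mutant first, and 3.17 to 16.7 RPKM in S0 to S4. Spry1, of the same family, stood at 7.18 and 6.87 RPKM in the S5 pair, mutant first, and 12.65 to 38.7 RPKM in S0 to S4. Ier3, the most abundant of the list, stood at 296 and 272 RPKM in the S5 pair, mutant first, and 36.5 to 156 RPKM in S0 to S4. The medium held EGF, whose receptor feeds the same cascade, and its part in these levels was not tested. Between genotypes 0 of 14 tested were called by limma, 0 had an unadjusted p under 0.05, and the median difference was 0.053, against 0.00055 over all genes. The smallest p-values were those of Spry1, with a difference of 0.21, and Ccnd1, with -0.17 (limma adjusted p = 0.887 for both).

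**Figure D4:**
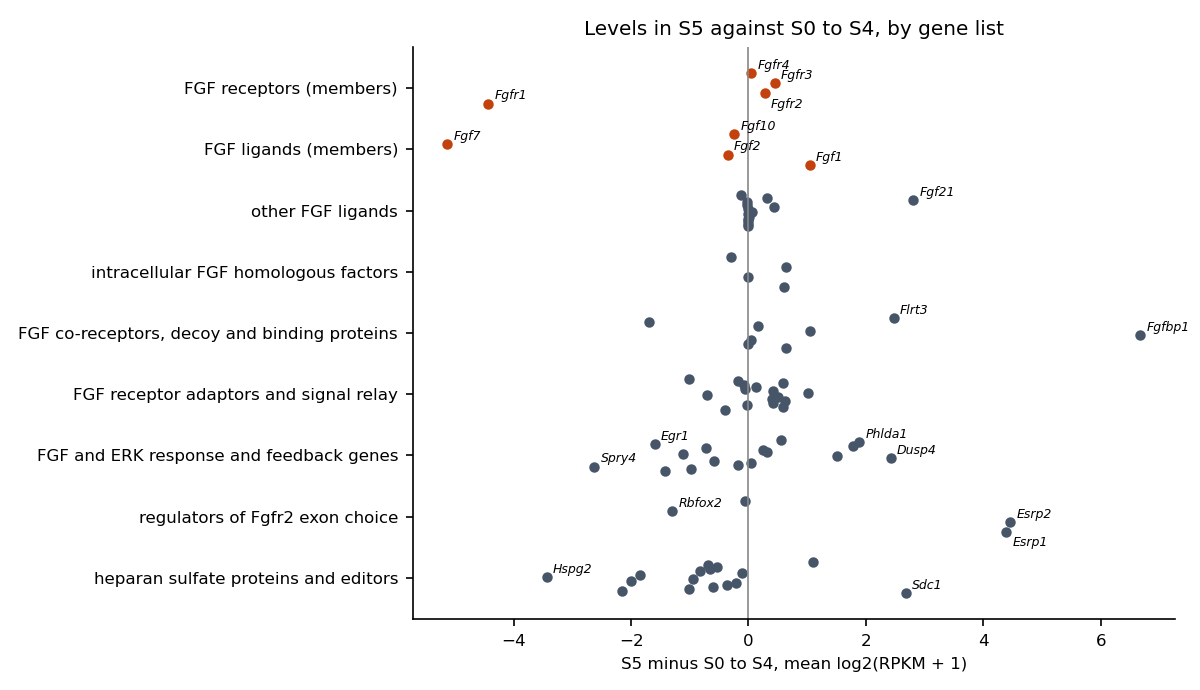
Difference of S5 minus S0 to S4 in log2(RPKM + 1) for each gene of the FGF lists, 1 row per list and 1 point per gene, members in colour. Fgfr1 and Fgf7 lie at -4.44 and -5.13, Fgfbp1 lies at 6.68 at the other end, and Hras, the highest of the adaptor and relay genes, lies at 1.01.

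Heparan sulfate carriers and editing enzymes, which FGFs need to bind their receptors, were lower in S5 for most genes. Of the 15 in the background of 15508, S5 lay below all others for 11 and above for 2, against 27.0% and 24.9% of all genes. The carriers Hspg2 and Sdc1 lay at opposite ends. Hspg2, which encodes perlecan, stood at 7.77 and 7.74 RPKM in the S5 mutant and control and 74.55 to 126.5 RPKM in S0 to S4. Sdc1, an epithelial syndecan, stood at 263 and 317 RPKM in the S5 pair, mutant first, and 36.8 to 57.7 RPKM in S0 to S4. Sdc4, the most abundant of the list, stood at 69.65 and 51.6 RPKM in the S5 pair, mutant first, and 78.55 to 117 RPKM in S0 to S4.

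Between genotypes, 0 of the 15 heparan sulfate genes tested were called, and 3 were at an unadjusted p under 0.05, all with the higher mean in SPOPmut: Sulf2, Gpc4 and Gpc1 (3.82% of all genes were higher at that p). Gpc1 was named after its value was seen. Sulf2, an endosulfatase that removes sulfate from heparan sulfate, had the smallest p of the list and stood higher by 0.47 in log2(RPKM + 1), in 6 of 6 pairs (limma adjusted p = 0.583). Gpc4, a membrane-anchored glypican, stood at 73.9 and 57.5 RPKM in the S0 mutant and control, 67.7 and 56.4 in the S1 pair, 76.2 and 50.9 in the S2 pair, 71.3 and 61.3 in the S3 pair, 84.7 and 68.0 in the S4 pair and 18.1 and 13.5 in the S5 pair, each mutant first. It was higher in 6 of 6 pairs by 0.35 (SE 0.072, limma adjusted p = 0.769), and the ranges of the groups overlapped. The median over the 15 was 0.12, against 0.00055 over all genes.

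Fgf13, an intracellular homologous factor that binds sodium channels and is not secreted, was the only 1 of its 4-gene list tested. Its mean difference was -0.17 in log2(RPKM + 1), with SPOPmut lower in 6 of 6 pairs (limma unadjusted p = 0.0301, adjusted p = 0.881). A sign of lower in 6 of 6 pairs was met by 1.68% of all genes. Its levels differed more between pairs than within them, with 2.41 and 3.21 RPKM in the S5 mutant and control and 0.328 and 0.609 RPKM in the S4 mutant and control.

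**Figure D5:**
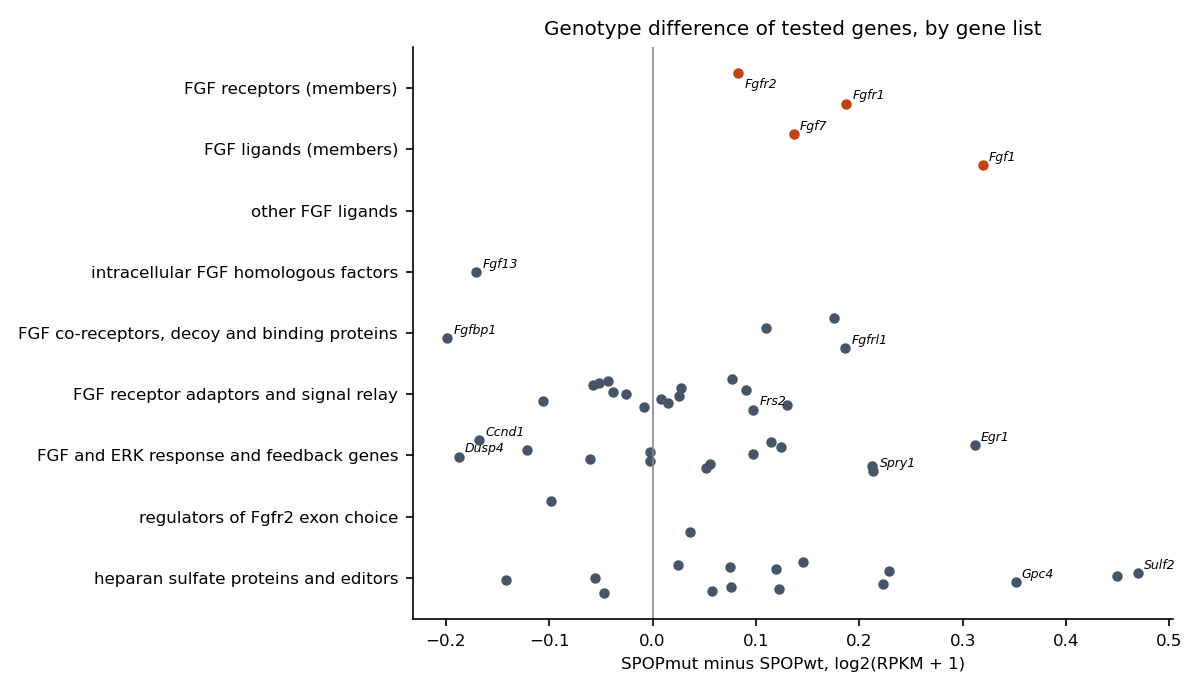
Mean difference of SPOPmut minus SPOPwt in log2(RPKM + 1) over 6 pairs for each tested gene of the FGF lists, 1 row per list, members in colour. None of the points passed the adjusted threshold; the heparan sulfate row reaches furthest to the right, with Sulf2 at 0.47, Sulf1 at 0.45 and Gpc4 at 0.35.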

How the data were processed

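The deposited values are RPKM per gene name, 1 file per library, normalized by the authors for transcript length and depth, going by the file names. STAR (2.4.0j) and the build GRCm38 (mm10) are listed in the submitters' processing notes. No source used here gives the counting program or annotation. Of 43243 names, 91.2% matched GENCODE M21, whose exon lengths gave the approximate depth. In each library 31.4 to 34.8% of low values lay within 0.02 reads of a multiple of 0.5 reads, so whole reads were not recovered and no count test was run.

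RPKM was taken as log2(RPKM + 1), which understates changes of low genes. limma 3.58.1 (R 4.3.3) fitted pair and genotype to the 13600 genes at 1 RPKM or more in at least 6 libraries, with a trended, robust prior and two-sided p-values adjusted by Benjamini-Hochberg over all 13600, called under 0.05. Single genes also had an exact two-sided sign-flip permutation test over 6 pairs. No gene set was tested and no p was adjusted over a list. The fit was tested on simulated data. The rest was done in Python 3.11.15 (scipy 1.17.1, numpy 2.4.6, pandas 2.3.3) and drawn with matplotlib 3.10.9.

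Named were the 8 members and, of each list, the 2 tested genes of smallest p and the most abundant. Pbsn, Thy1, Myh11, Des, Flrt3, Fgfbp3, Klb, Kl, Fgf3, Fgf4, Fgf6, Fgf16, Hras, Esrp1, Esrp2, Hspg2, Sdc1, Sulf1, Dusp4, Dusp6, Phlda1, Spry2, Spry4 and Etv1 were named after their values were seen. The members and lists were chosen with earlier results of these data known. Of the other marker lists, luminal markers summed to 2246 to 2569 RPKM in S5 and 75.3 to 219 RPKM in S0 to S4, and mesothelial markers to 644 to 934 RPKM in S5 and 40.1 to 210 RPKM in S0 to S4. Neuroendocrine markers summed to 2.34 to 3.41 RPKM in S5 and 7.13 to 25.98 RPKM in S0 to S4, immune markers to 7.785 to 8.31 RPKM in S5 and 4.00 to 6.99 RPKM in S0 to S4, and endothelial and seminal vesicle markers to at most 4.89 and 0.132 RPKM in any library. The closest libraries of 1 group, the S1 and S2 controls, still differed by more than sampling (median chi-square 1.086 over genes, against 0.455 from sampling), so none were merged. The S1 and S2 mutants came next at 1.837, and the closest other libraries stood at 6.457. A value above sampling does not show that S1 and S2 are separate lines, and all counts of pairs take them as 2.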

Additional observations from a re-analysis of the deposited data

Results flagged for a closer look

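In 24 sets of 6 values (each gene's levels in SPOPmut and in SPOPwt and its 6 pair differences, in log2(RPKM + 1)), 5 had 1 library further from the rest than Dixon's 95% critical value allows, where chance flags about 1 in 20. All 5 were S5 libraries, so they restate the split of S5 that the levels already show and give it no support; the groups share pairs, so the sets are not independent. Fgfr1 was lowest in S5, at 0.1535 RPKM in the mutant, with a gap of 0.799 of the group's range, and at 0.0994 RPKM in the control, with a gap of 0.737. Fgf7 was lowest in S5, at 0.332 RPKM in the mutant, with a gap of 0.901, and at 0.23 RPKM in the control, with a gap of 0.768. Fgfr3 was highest in the S5 mutant, at 0.463 RPKM, with a gap of 0.727. The difference of SPOPmut minus SPOPwt for Fgf1 was -0.45 in S5 and above 0 in each of S0 to S4; this contrast of 1 pair with 5 was not tested.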

How the results depend on the processing

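With the replicate block (pair) or without it, 0 genes were called; the fit with no replicate block had 29 genes at an unadjusted p under 0.05, against 761 with it. Members of a pair deviated from their group means together with correlations across genes of 0.753 to 0.954 in S1 to S5 and of 0.0602 in S0, so the values of S0 do not show its pairing. The number called was 0 under each other alternative, leaving out each pair included (0 to 0), except with array weights by pair, which called 9 genes, 7 higher and 2 lower; the cause was not tested. Fgfr1, Fgfr2, Fgf1 and Fgf7 were called under none of these alternatives; Fgf2 was in the fits with no filter and with 1 RPKM in at least 2 libraries, and Fgfr3, Fgfr4 and Fgf10 in the fit with no filter alone, with no call. Quantile normalization had 458 genes higher and 366 lower at an unadjusted p under 0.05, upper quartile scaling 424 and 310, against 520 and 241 as reported.

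Leaving out 1 pair at a time gave differences of 0.12 to 0.24 for Fgfr1, 0.026 to 0.18 for Fgfr2, -0.07 to -0.014 for Fgfr3, 0.17 to 0.47 for Fgf1, -0.13 to -0.027 for Fgf2, 0.033 to 0.23 for Fgf7 and 0.02 to 0.078 for Fgf10. Genotype differences also moved by over 1.5 times with a pseudocount of 0.1 (Fgf1 0.71), with pairs S1 to S4 alone (Fgf7 0.013, Fgfr2 4.36e-05), with array weights (Fgfr1 0.093, Fgfr2 0.047, Fgf1 0.20, Fgf7 0.056) and with quantile normalization (Fgfr2 0.045). Fgfr4, at a few reads, ran from -0.0047 to 0.0075, and changed sign to -0.0026 without replicate 0 and -0.0047 without replicate 3. With a pseudocount of 0.1, S5 minus S0 to S4 became -6.71 for Fgfr1, 1.61 for Fgfr3, 0.39 for Fgfr4, 1.82 for Fgf1, -0.83 for Fgf2, -6.86 for Fgf7 and -1.43 for Fgf10, larger by construction and of the same sign. S1 and S2 averaged as 1 pair, chosen after seeing the data, called 0 genes. RPKM near 0.01 is at most a few reads, so Fgfr4 and Fgf10 in S5 are limited by depth.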

Other observations

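Some FGF ligands of very low level were higher in 2 of the 5 pairs S0 to S4. Fgf23, a bone-derived hormone of phosphate balance, stood at 0.496 and 0.298 RPKM in the S3 mutant and control and 0.0981 and 0.0574 RPKM in the S4 mutant and control, and at 0.0156 RPKM or less in the other 8 libraries. Fgf20, a paracrine ligand, stood at 0.102 and 0.08 RPKM in the S1 mutant and control and 0.112 and 0.0997 RPKM in the S2 mutant and control, and at 0.0297 RPKM or less in the other 8. These genes were picked after their values were seen and none was tested.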
